A study of Mus musculus with 2 samples.

Results

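Large clusters of acetylated histone H3 lysine K56 (H3K56ac) were described in mouse embryonic stem cells of the line E14Tg2a, a male line grown without feeder cells and derived from the inner cell mass of the embryo. The deposited interval list of 1 H3K56ac chromatin immunoprecipitation sequencing (ChIP-seq) library was used; the labels name 2 libraries, and the input DNA library was not analysed here. Both groups are the same line grown in serum with leukaemia inhibitory factor, with 1 library per group, so no value below has a replicate and no difference between conditions was tested. Intervals less than 12.5 kb apart on a chromosome were joined into clusters, and a cluster was called large when its interval widths summed to 10000 bp or more. This rule kept 193 of 22232 clusters. These clusters were chosen by the position, width and spacing of the intervals themselves, so every size given for them describes the choice and is no test of it.

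H3K56 lies in the globular core of histone H3, near the points where DNA enters and leaves the nucleosome, and its acetylation is known from newly assembled and from actively used chromatin. In embryonic stem cells, dense groups of enhancers bound by Oct4 and other pluripotency factors are known as super-enhancers, and they are commonly found by joining neighbouring enhancer peaks over the distance used here. The study's title names the relation of H3K56ac to Oct4. The list holds H3K56ac alone, without signal strength, Oct4 binding or gene positions, so a large cluster is called super-enhancer-like only for its form. No cluster was assigned to a gene, because no annotation of mm9, the build named in the submitters' processing notes, was used here. Positions are in mm9, counted from 1 with both ends included. The depth of the library is unknown.

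The 193 large clusters were 0.868% of all clusters and held 10700 of the 92549 intervals (11.6%) and 3.15 Mb of interval sequence, 18.7% of all interval bases. Together they extended over 18.2 Mb, or 0.708% of the listed stretch, which runs on each chromosome from its first interval to its last. Their interval bases ranged from 10000 to 66450 bp with a median of 13750 bp and quartiles of 11350 and 17800 bp. Their number declined with size: 35 clusters had 10000 to 10950 bp, 38 had 20 kb or more, and 10 had 30 kb or more.

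The minimum of 10000 bp did not fall at a break in the ranked sizes. Just inside it were 2 clusters of exactly 10000 bp, on chromosome 11 from 120007501 to 120059150 and on chromosome 6 from 122635901 to 122695850, and 1 of 10050 bp on chromosome 11 from 97135951 to 97236300. Just outside were a cluster of 9900 bp on chromosome 17 from 33005901 to 33048150 and 2 of 9800 bp, on chromosome 1 from 62770551 to 62831600 and on chromosome 11 from 69209351 to 69287000. The latter had 24, 38 and 47 intervals, a range that takes in the 35, 34 and 44 intervals of those just inside. A further 42 clusters, these 3 among them, had 9000 to 9950 bp. The tangent point of the ranked curve, which is often used to separate super-enhancers from typical enhancers by signal, was at 3700 bp when it was applied to interval bases. It left 912 clusters above it, which held 43.1% of all interval bases. The rule used here is therefore the narrower one.

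**Figure D1:**
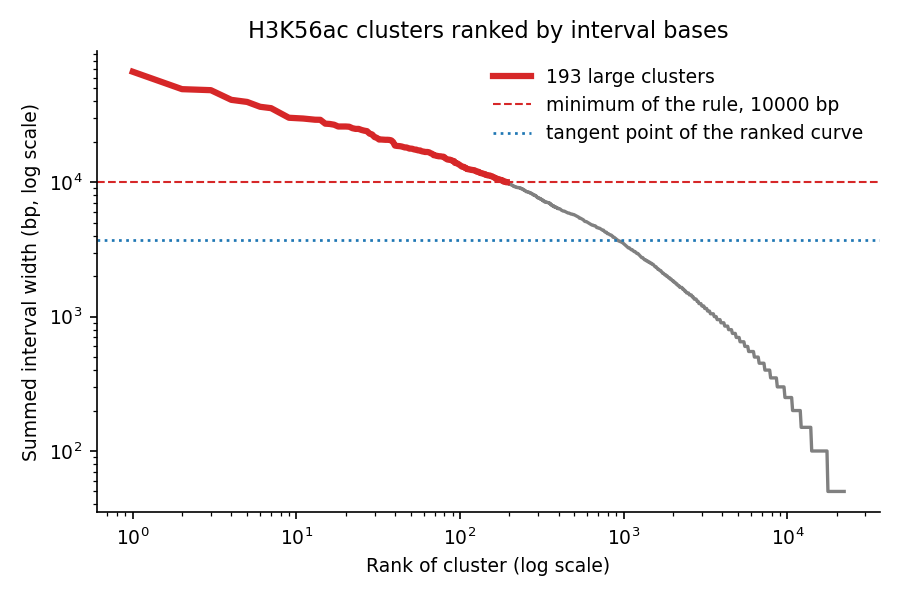
Summed interval width of each cluster in bp (vertical axis, log scale) against its rank (horizontal axis, log scale), with the 193 large clusters in red. The dashed line marks the minimum of 10000 bp and the dotted line the tangent point at 3700 bp; the curve passes the minimum without a step.

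The largest cluster by interval bases stood apart from the next ones. It lay on chromosome 12 from 88109201 to 88289150 and held 66450 bp in 130 intervals, and the second, on chromosome 8 from 122827901 to 123097800, held 49300 bp in 174 intervals, the highest number in any large cluster. The median interval of the first was 325 bp wide, against 150 bp in the second. The cluster on chromosome 12 was thus made of wider intervals on a shorter stretch (180 kb against 270 kb), and intervals covered 36.9% of it against 18.3% of the cluster on chromosome 8. It was also the most covered of the 28 large clusters of 150 kb or more, whose median was 12.3%.

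The next 8 by size held between 48450 and 30000 bp. On chromosome 11 were the third (117723951 to 117957050, 161 intervals, 48450 bp), the fifth (8441451 to 8596400, 110 intervals, 39600 bp) and the sixth (97361851 to 97565000, 116 intervals, 36450 bp). The fourth was on chromosome 4 from 132490751 to 132691250, with 120 intervals and 41050 bp. Chromosome 11 alone thus gave 3 of the 10 largest. Chromosome 17 had the seventh (45584051 to 45779850, 128 intervals, 35600 bp) and the eighth (71154551 to 71274950, 91 intervals, 32650 bp). The ninth, on chromosome 8 from 73079051 to 73438300, was the longest of all large clusters at 359 kb, with 134 intervals and 30200 bp. Rank 10, on chromosome 18 from 38719401 to 38860550, had 86 intervals and 30000 bp. Covered shares among these 8 ranged from 8.41% in the ninth to 27.1% in the eighth, over lengths from 120 to 359 kb.

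The shortest stretch that held at least 50% of a cluster's interval bases is called its core here. A core is more covered than the rest by its definition, so its values show where and how closely intervals were packed, with no test of unevenness. In the largest cluster the core ran for 58.1 kb, from 88208051 to 88266150, and 57.3% of it was covered, against 27.2% of the rest of that cluster. In the third, the core of 54.9 kb (117790401 to 117845300) was 44.3% covered and the rest 13.6%. The sixth had the shortest core of the 10, 37.6 kb at its right side (97512501 to 97550100), with 48.5% covered inside and 11.0% outside. The contrast was smaller in the second, where a core of 93.9 kb was 26.3% covered and the rest 14.01%. In the ninth and longest, the core was 88.0 kb long and 17.2% covered, and the rest 5.57%. Among the clusters named in this paragraph, the covered share of the core thus ranged from 17.2% in the ninth to 57.3% in the largest. They were ranked by interval bases, so this spread was not set against their spread in bases.

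**Figure D2:**
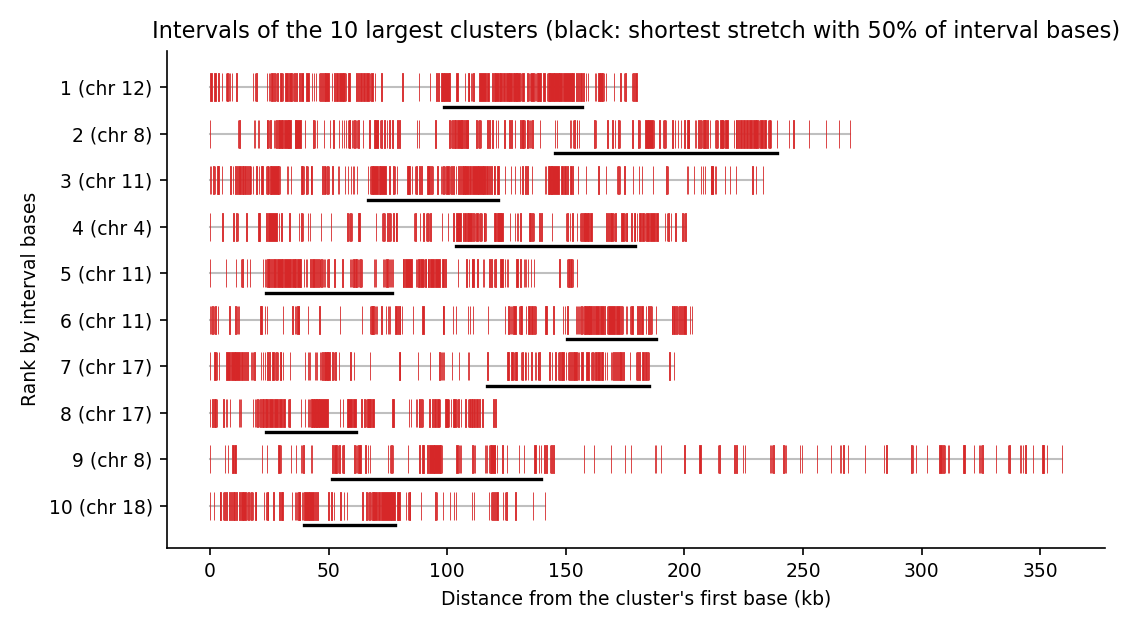
Intervals (red) of the 10 clusters with the most interval bases, by distance from each cluster's first base in kb (horizontal axis) and by rank (vertical axis, with the chromosome); outlines make narrow intervals visible and add slightly to their width. Black bars mark the shortest stretch with at least 50% of the interval bases, 58.1 kb in the largest cluster and 93.9 kb in the second.

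Large clusters were long and mostly open between their intervals. Their length ranged from 19.6 to 359 kb, with a median of 79.4 kb and quartiles of 59.2 and 124 kb. The number of intervals ranged from 19 to 174 with a median of 50 (quartiles 40 and 63). Intervals covered between 5.53% and 63.8% of a cluster, with a median of 18.3% and quartiles of 13.6% and 24.1%. At least 30% was covered in 24 clusters and under 10% in 16. The typical large cluster was thus a series of separate H3K56ac intervals, and most of its length carried no called interval.

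Compact and extended forms were both present. The 27 large clusters under 50 kb had a median covered share of 35.6%, 28 intervals and 11500 interval bases. In the 28 of 150 kb or more, these medians were 12.3%, 92 intervals and 21050 bp. The compact clusters were denser in intervals too, with a median of 8.99 intervals per 10 kb against 5.02. Across the 193 clusters, length and covered share had a Spearman rho of -0.71, which follows in part from the rule, since length is the denominator of the share and a short cluster can reach the minimum only when much of it is covered. Length and interval number had a rho of 0.87, and length and interval bases one of 0.48.

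**Figure D3:**
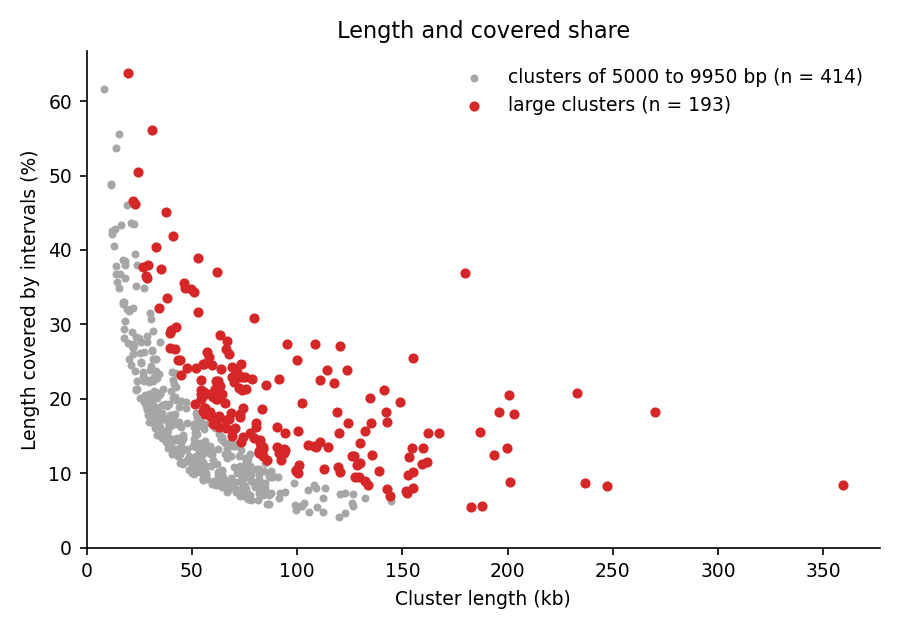
Share of the cluster length covered by intervals in percent (vertical axis) against cluster length in kb (horizontal axis), 1 point per cluster, for the 193 large clusters (red) and the 414 clusters with 5000 to 9950 bp of interval sequence (grey). The lower edge of the red points is set by the minimum of 10000 bp; the red point near 180 kb and 36.9% is the largest cluster, on chromosome 12.

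In 3 large clusters, singled out after their values were seen, intervals covered 50% or more of the length. The most covered was also the shortest, on chromosome 16 from 23089551 to 23109150: 20 intervals covered 63.8% of 19.6 kb, and no inner gap exceeded 900 bp. A cluster on chromosome 18 from 61770801 to 61802000 had the fewest intervals, 19, which covered 56.1% of 31.2 kb. It owed this to 1 interval of 7250 bp, the widest in any large cluster, which made up 41.4% of its interval bases. The last of the 3, on chromosome 7 from 87155451 to 87180000, had 24 intervals on 24.6 kb and 50.5% covered. At the other end, 64 intervals covered 5.53% of a cluster of 183 kb on chromosome 19 from 7114201 to 7296750. It passed the minimum, with 10100 bp, by its length.

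No single interval could make a large cluster, since the widest was 7250 bp in large clusters and 4300 bp elsewhere, below the minimum of 10000 bp. The widest interval of a large cluster ranged from 650 to 7250 bp (median 1800 bp) and held a median of 12.1% of the cluster's interval bases. It held 25% or more in 6 of the 193, and in 7 no interval reached 1000 bp. In the 414 clusters with 5000 to 9950 bp of interval sequence, whose sums are smaller by definition, it held a median of 17.3%. The 5 widest intervals of a large cluster together held a median of 38.5%, and a median of 8 intervals was needed to reach 50% of the bases (range 2 to 23). The bases thus came from several moderately wide intervals in most large clusters, alongside many narrow ones.

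Intervals inside large clusters were wider than elsewhere in the list, as a rule based on summed width favours. Their median width was 150 bp (quartiles 100 and 350 bp) against 100 bp (50 and 200 bp) in all other clusters. The 414 clusters with 5000 to 9950 bp of interval sequence had the same median of 150 bp (100 and 300 bp). Intervals of 50 bp, the smallest step of the list, were 19.9% of those in large clusters (exact binomial 95% interval 19.1% to 20.6%) and 32.1% (31.8% to 32.4%) elsewhere. These intervals cover counting error only and take H3K56ac intervals as independent, which neighbours are not. Intervals of 1000 bp or more were 5.58% (5.15% to 6.03%) against 1.03% (0.961% to 1.10%). Of the 1439 such intervals in the whole list, 597 (41.5%) lay in the 193 large clusters, as did 128 of the 214 of 2000 bp or more (59.8%) and 9 of the 10 widest. The next size class, 5000 to 9950 bp, lay between. Its intervals were 23.0% of 50 bp and 3.47% of 1000 bp or more. It held 27.2% of the 1439 with 12.2% of all intervals, so broad intervals were not particular to large clusters.

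The difference in width remained when the number of intervals was held alike. The 97 large clusters with 40 to 63 intervals were set beside the 37 other clusters in the same range. Their medians were 50 and 43 intervals and their lengths were close, 78.7 and 84.5 kb. Intervals of 1000 bp or more were 4.98% (4.38% to 5.62%) of those in the large clusters and 0.962% (0.551% to 1.56%) of those in the others. The widest interval had a median of 1650 bp and 950 bp. With interval number held, width is the quantity that the minimum on summed width acts on, so this describes what the rule picked: among clusters of like length and number, it kept those with broad intervals.

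Inside large clusters, most gaps were short, and a few long ones took up much of the empty length. The 10507 inner gaps had a median of 550 bp (quartiles 300 and 1450 bp), and 67.2% were under 1000 bp. Gaps of 5000 bp or more were 802 (7.63%), but they held 41.4% of all gap bases. In the 414 clusters with 5000 to 9950 bp of interval sequence, the median gap was 650 bp, 61.2% were under 1000 bp, and gaps of 5000 bp or more were 10.6%. In all clusters that were not large, these values were 800 bp, 54.6% and 16.3%. Gaps under 1000 bp were a larger share in large clusters than in either of these sets. Large clusters were chosen by the summed widths of intervals joined over these same gaps, so this describes the choice.

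The shortest gap of the list, 150 bp, was also the most frequent inside large clusters, with 915 cases. Gaps of 300 bp followed with 864, above those of 250 bp (742), 200 bp (720) and 350 bp (572). In the clusters of 5000 to 9950 bp, gaps of 150 bp also came first, with 800 cases against 764 of 300 bp. Pooled over all clusters that were not large, the order was different, with 3614 gaps of 300 bp and 3418 of 150 bp.

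Gaps were shortest beside broad intervals. For intervals of 1000 bp or more in large clusters, first and last intervals of a cluster left out, the nearer of the 2 neighbouring gaps had a median of 225 bp (quartiles 150 and 300 bp, 594 intervals). It was 250 bp beside intervals of 500 to 950 bp, 300 bp at 150 to 450 bp, 400 bp at 100 bp and 550 bp (300 and 1200 bp, 1994 intervals) beside intervals of 50 bp. A gap under 1000 bp adjoined 98.8% of the broadest class and 70.9% of the narrowest. Broad intervals therefore lay in the most closely packed stretches of these clusters; separate sites and pieces of 1 broader site cannot be told apart in the list.

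Most large clusters held more than 1 group of intervals. The largest inner gap had a median of 9550 bp and was 10 kb or more in 89 of the 193, close to the joining distance. This was not particular to large clusters. The median was 9250 bp in the clusters of 5000 to 9950 bp and 11300 bp in the 75 other clusters of at least 79.4 kb. Cut at gaps of 5000 bp or more, the large clusters gave a median of 4 pieces (quartiles 3 and 7). The number reached 26 in the longest one, on chromosome 8, where 19 of the pieces had 2 or more intervals. Counting only such pieces, 163 of the 193 clusters had at least 2, 133 had at least 3, and 30 had 1. Only 23 stayed in 1 piece, all others gave 2 or more, and 87 gave 5 or more. Compact clusters stayed whole more often, with a median of 1 piece under 50 kb, 4 from 50 to 100 kb, 7 from 100 to 150 kb and 9.5 at 150 kb or more.

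Over all 193, the core with at least 50% of the bases had a median length of 16.5 kb (quartiles 11.4 and 27.2 kb), which was 22.6% of the cluster (17.3% and 30.7%). Inside the core a median of 44.7% was covered, and outside it 12.0%, a difference in the direction that the definition sets. The core share was 8.38% in the least and 97.8% in the most covered core, the latter in the cluster with the 7250 bp interval on chromosome 18. In the 414 clusters of 5000 to 9950 bp, the core had a median of 8.08 kb or 19.3% of the length, and 44.9% of it was covered. The cores of large clusters were thus about as densely covered as those of the next size class and longer. A core holds at least 50% of the bases, so at a like covered share its greater length follows from the minimum.

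The centre of a large cluster was on average more covered than its edges. Each cluster was cut into 10 equal parts. The 2 central parts were 24.9% ± 18.5 covered and the 2 outermost parts 14.1% ± 10.2 (mean ± SD over 193 clusters), a ratio of 1.76. The spread between clusters was wide: the centre was more covered in 133 clusters, and the edges in 59. The outermost parts had means of 14.3% and 13.96%, and the central 2 24.1% and 25.6%, so the decline was alike on both sides. In the clusters as joined, both interval width and number contributed. Intervals centred in the central parts averaged 319 bp and numbered 2327, and those in the outermost parts averaged 222 bp and numbered 2070. Intervals of 1000 bp or more were 2.88% and 2.62% of those in the first and last parts and 7.09% and 6.34% of those in the central 2. Wider central intervals were not particular to large clusters. In the clusters of 5000 to 9950 bp, these shares were 1.63% and 1.65% at the ends and 3.98% and 4.44% in the central 2. Mean widths there were 260 bp in the central and 203 bp in the outermost parts.

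The way in which clusters end enters this profile. Every cluster begins and ends with an interval, and a lone interval up to 12.5 kb away extends it. With the first and last interval of each cluster left out, an alternative chosen after the data were seen, the central parts were 25.5% and the outermost 18.1% covered, and the ratio fell to 1.41. The centre was then more covered in 117 of 193. Interval numbers were then nearly alike, 2163 in the central and 2128 in the outermost parts, while mean widths were 326 and 243 bp. In the 414 clusters of 5000 to 9950 bp, the central parts were 17.9% ± 17.8 and the outermost 15.2% ± 12.1 covered, a ratio of 1.18, with the centre higher in 211 and the edges in 201. The 75 clusters that were not large but at least 79.4 kb long had 7.10% and 6.53%, a ratio of 1.09. Both sets were used as joined, so their ratios stand beside the 1.76 of large clusters as joined and not beside 1.41. The ends also enter them unequally. The fifth part held no interval in 11.1% of the clusters of 5000 to 9950 bp and in 3.11% of large clusters, while the outermost parts always held 1. The difference between the ratios was not tested, since the rule used the same intervals.

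**Figure D4:**
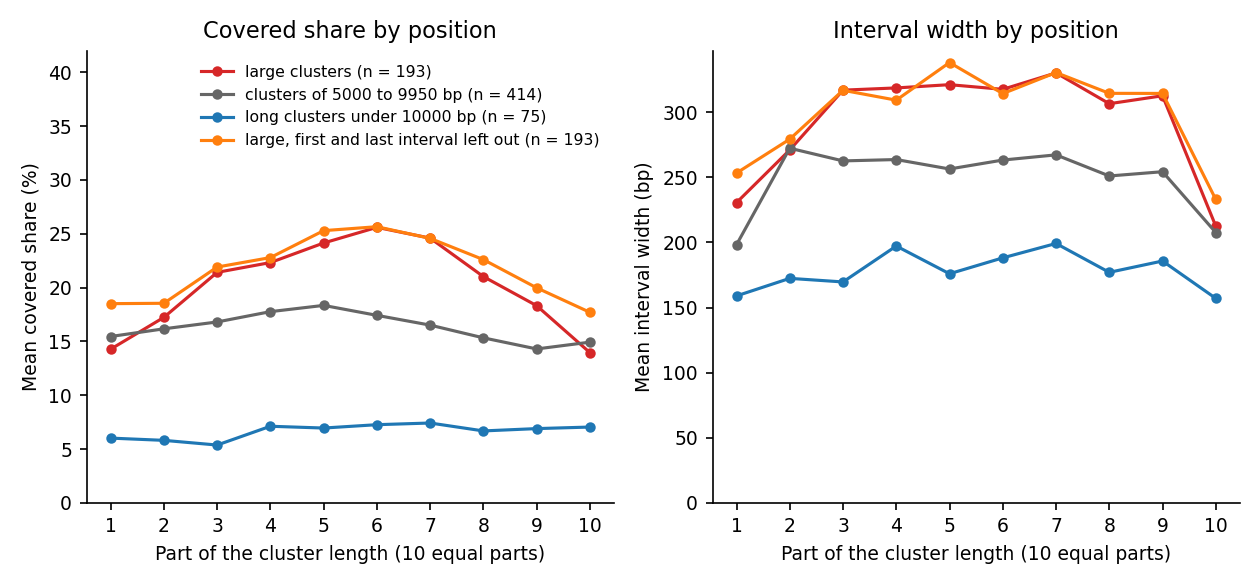
Mean covered share in percent (left, vertical axis) and mean interval width in bp (right, vertical axis) in each of 10 equal parts of the cluster length (horizontal axes), for the large clusters as joined and without their first and last intervals, the 414 clusters of 5000 to 9950 bp and the 75 other clusters of at least 79.4 kb. Points are means over clusters (left) or over intervals (right) without error bars; in large clusters the covered share runs from 14.3% in the first part to 25.6% in the sixth and 13.96% in the last.

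The fullest stretch lay at different places in different clusters. The fuller side of a cluster, divided at its midpoint, held a median of 64.4% of its interval bases (quartiles 55.8% and 73.4%) and 75% or more in 37 clusters; it holds at least 50% by definition, and the value that chance placement would give was not computed. The midpoint of the core lay in the middle 50% of the length in 139 of 193 and in the outer 10% at either end in 3; a core has a length of its own and cannot be centred at an end. The widest interval lay in the middle 50% in 121 clusters and in the outer 10% at either end in 26. Since the length of a core keeps its midpoint from the ends, these counts cannot be set against those of cores. The central maximum of the average profile is thus a mean over clusters with their fullest stretch at different places.

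Outside their ends, large clusters were set in stretches with other H3K56ac intervals. Within 100 kb on both sides, a median of 1.98% was covered (quartiles 1.00% and 3.88%), above the 0.655% of the whole listed stretch and below the 18.3% inside. In the 414 clusters of the next size class the flanks were 1.81% covered (0.925% and 3.23%). In the 1898 clusters of 10 or more intervals that were not large, the value was 1.59%. The gap from a large cluster to the next interval had a median of 21.0 kb (quartiles 15.8 and 32.9 kb), where the rule sets a lower limit of 12.5 kb, and 237 of 386 such gaps were under 25 kb. Gaps of 100 kb or more were 14 (3.63%). Short outer gaps were not particular to large clusters. Under 25 kb were 61.4% of theirs, 59.6% in the next size class and 55.98% in the 1898 clusters. The median outer gap was 21.975 kb in the next size class and 22.9 kb in the 1898 clusters. Gaps of 100 kb or more were 3.995% and 5.43% there.

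The inside was more covered than the flanks in 192 of the 193, a direction that the rule largely sets. Large clusters were chosen for their interval bases, and the first 12.5 kb outside each end hold no interval by the rule. The exception, on chromosome 10 from 80684551 to 80827450, was 7.91% covered inside and 12.1% in its flanks. Its flanks hold another large cluster 12.75 kb away, from 80840201 to 80897050, which was 20.7% covered. At the other extreme, a cluster of 11200 bp on chromosome 3 from 133168651 to 133213100 had no interval within 100 kb on either side. Both were singled out after their values were seen.

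Some large clusters lay near one another, and most did not. The distance to the nearest other large cluster had a median of 1.58 Mb (quartiles 0.425 and 5.80 Mb) and ranged from 12.75 kb to 72.7 Mb. It was under 1 Mb for 74 clusters (38.3%) and under 100 kb for 26. Of the neighbouring pairs, 8 were under 25 kb apart, so a joining distance of 25 kb would unite them. Linked at less than 1 Mb, 119 clusters stood alone, 20 groups had 2, 5 had 3, 1 had 4 and 3 had 5. These counts were not set against those of other clusters, so grouping beyond that of the intervals was not tested.

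The 3 groups of 5, again picked after they were seen, lay on chromosomes 11, 10 and 15. The group on chromosome 11, from 96786151 to 97691600, had 86.8 kb of interval sequence within 0.905 Mb and includes the sixth largest cluster. The group on chromosome 10 (79365701 to 81119150) had 68.4 kb within 1.75 Mb, and that on chromosome 15 (100050701 to 102243350) had 66.8 kb within 2.19 Mb. The group of 4 was on chromosome 17 from 46904901 to 48138050, with 74.8 kb within 1.23 Mb. On chromosome 12, the largest cluster of all had 1 further large cluster near it, and together they held 89.5 kb within 0.493 Mb.

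Large clusters were found on each of the 19 autosomes and not on X or on the sequence named 21. Chromosome 11 had the most, 22 of the 193, which was 11.4% of them (exact binomial 95% interval 7.28% to 16.7%) against 7.88% of all intervals. The binomial interval takes in this 7.88%, and also the chromosome's 8.55% of all interval bases. Chromosome 11 was picked as the fullest, which the binomial interval does not allow for. Chromosome 2 followed with 17, chromosome 17 with 16 and chromosome 4 with 15. The fewest were on chromosome 13, with 2, and on chromosome 16, with 4. Chromosomes 11, 2 and 17 together held 28.5% of the large clusters and 20.9% of the intervals.

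Per length, chromosomes 11 and 17 stood above the others, with 18.5 and 17.4 large clusters per 100 Mb between first and last interval. Chromosome 15 was next with 11.0, and chromosome 13 lowest with 1.71. The mean over autosomes was 8.19 ± 4.13 (SD, 19 autosomes). These densities went with the density of intervals, which was 61.4 per Mb on chromosome 11 and 51.3 on chromosome 17: across the 19 autosomes the Pearson r was 0.86 and Spearman's rho 0.78, and r was 0.75 over the 17 without chromosomes 11 and 17. Both densities come from the same intervals, and joining acts more where intervals are dense, so this is a description. On chromosome 19, behind only these 2 in interval density with 48.5 per Mb, there were 8.60 large clusters per 100 Mb, close to the autosomal mean.

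As a share of its own clusters, chromosome 17 had the most large ones, 1.75% (exact binomial 95% interval 1.00% to 2.82%), followed by chromosome 11 with 1.55% (0.977% to 2.34%). These intervals overlap each other and those of every autosome except chromosome 13. Chromosome 13 had 0.200% (0.0242% to 0.721%), below the lower limits of chromosomes 11 and 17. Over all autosomes it was 0.904% (0.782% to 1.04%). Large clusters held 31.6% of the interval bases of chromosome 17, 27.0% of those of chromosome 11, 26.9% on chromosome 12, and 8.12% on chromosome 16. On chromosome 12, the single largest cluster supplied 66450 of the 170600 bp in its 7 large clusters.

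None of the 845 clusters on X was large, which allows a share of up to 0.355% by the limit of 3 counts and of up to 0.436% by the exact binomial 95% interval used for the autosomes, whose pooled share was 0.904% (lower limit 0.782%). The largest on X, from 155941201 to 155982750, came close to the minimum with 9150 bp in 30 intervals, and 22.0% of its 41.6 kb was covered. The next had 7300 bp (55259901 to 55311350) and 6050 bp (7291551 to 7367250). Clusters of 5000 to 9950 bp were 4 on X, 0.473% of its clusters, against 1.92% on the autosomes. E14Tg2a is a male line with 1 X, interval density on X was 13.5 per Mb, and copy number, density and acetylation cannot be told apart here. The sequence named 21 had 47 clusters, the largest of 700 bp, with limits of 6.38% and 7.55%.

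**Figure D5:**
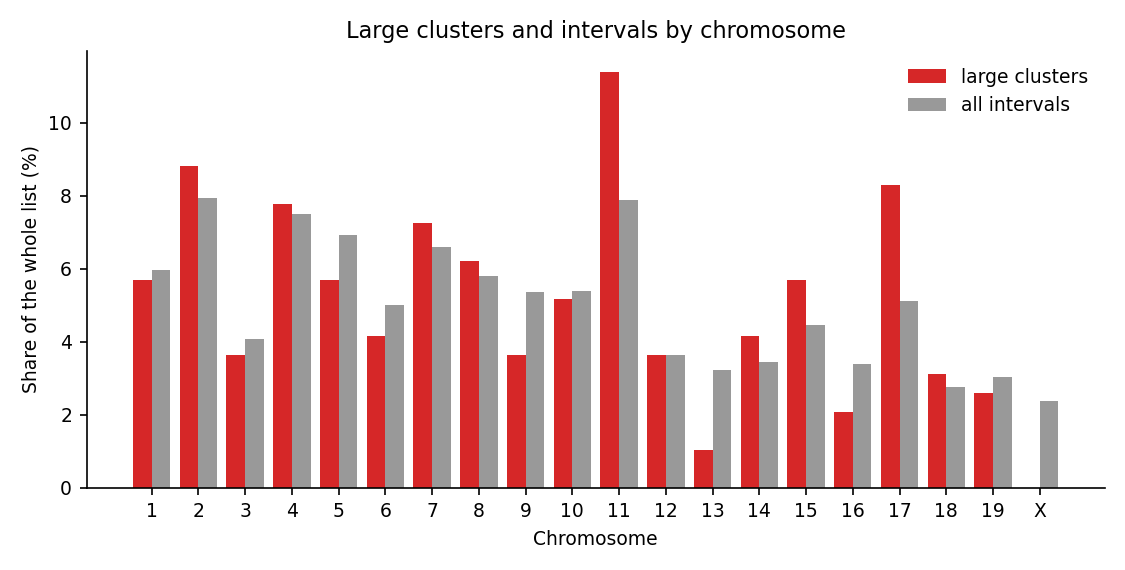
Share of the 193 large clusters (red) and of all 92549 intervals (grey) on each chromosome, in percent (vertical axis); the sequence named 21 is left out. Chromosome 11 has 11.4% of the large clusters and 7.88% of the intervals, and X has none and 2.38%.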

How the data were processed

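One H3K56ac ChIP-seq interval list of mouse embryonic stem cells was analysed. Per the submitters' processing notes, the build was mm9 and Bowtie was used; the sources used here name neither the caller of the intervals nor its threshold nor the part played by the input. The deposited file has 3 columns (chromosome, start, end) and no header, count, score or p-value. The positions that the authors deposited in it lay on a 50 bp grid when starts were counted from 1, with 0 exceptions.

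Width was end minus start plus 1. Intervals less than 12500 bp apart were joined, and clusters with a summed width of 10000 bp or more were kept. The members, lists and alternatives were chosen with earlier results of these data known. Named by rule were the 10 clusters with the most interval bases, the extremes of length, interval number and covered share, and 3 clusters on each side of the minimum. Alternatives changed the joining distance, the minimum and the intervals used. No sequence or gene is given, since no mm9 genome was used here. The code was tested on simulated data. Binomial intervals (95%, Clopper-Pearson) cover counting error only, and depth is unknown. The work was done in Python 3.11.15 with pandas 2.3.3, numpy 2.4.6, scipy 1.17.1 and, for figures, matplotlib 3.10.9.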

Additional observations from a re-analysis of the deposited data

How the results depend on the processing

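The sizes of the large clusters followed the joining distance and the minimum. Joined under 5000 bp, the list gave 109 large clusters with 9.51% of the interval bases, a median length of 40700 bp, 37 intervals, 35.6% covered, an inner gap of 400 bp and a ratio of central to outer covered share of 1.82. Joined under 25000 bp, these were 312, 33.1%, 175875 bp, 65, 9.33%, 700 bp and 1.50. With a minimum of 5000 bp they were 607, 35.3%, 57350 bp, 31, 15.4%, 600 bp and 1.35. With a minimum of 20000 bp they were 38, 6.49%, 142575 bp and 85.5 intervals, with a ratio of 1.68; the covered share (18.9%) and the gap (550 bp) stayed close. Without 50 bp intervals, 161 large clusters held 16.4% of the bases, with medians of 62900 bp, 39 intervals, 22.3% covered and a 500 bp gap, and a ratio of 1.49. After merging intervals under 500 bp apart, which adds their gaps to the widths, the values were 360, 27.1%, 68700 bp, 22, 24.0%, 1300 bp and 1.48. Without first and last intervals the ratio was 1.41, and the tangent point gave 912 clusters.

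The ratio was above 1 in all 7 alternatives that give one, from 1.35 to 1.82. All of them use the same intervals, so this is a description and no separate support for a fuller centre. The chromosome with the most large clusters was 11 in 5 of 6 alternatives, with 8.73% to 12.8% of them, and 17 with the minimum of 20000 bp (15.8%). X had no large cluster in 4 of the 6; it had 4 with the minimum of 5000 bp and 2 after merging. Of the 193 clusters, 104 overlapped a large cluster joined under 5000 bp and 156 one without 50 bp intervals. With no read counts in the list, a gap in a cluster may lack H3K56ac or hold too little of it to be called at the unknown depth.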
